A study of Mus musculus with 32 samples.

Results

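Fetal thymic DN1 cells that carried BCL11b but no ID2 were compared with DN1 cells that carried ID2 but no BCL11b, at embryonic stage E15.5. The members are 6 of the 32 libraries of the series, 3 from the BCL11b+ID2- gate and 3 from the BCL11b-ID2+ gate, chosen by the cell type that the labels give. The features described are the 10289 of 19404 genes in the E15.5 table that reached a normalised count of 10 in 3 or more of its libraries. All libraries came from embryonic thymus of the mouse strain named 5x polychromILC in the labels and were sorted by flow cytometry. No treatment is named, and the labels do not give the reporter constructs, the surface gate that defined DN1, the number of embryos pooled or the number of cells. The E15.5 table also held the BCL11b+ID2+ and BCL11b-ID2- DN1 gates, with 3 libraries each, and DN2 cells, with 2. The E19.5 table held the same populations with 3 libraries each and a further DN1 gate low for both markers. Libraries are numbered 1, 2 and 3 here (1, 2 and 4 at E19.5), and the labels do not say whether each is from other embryos. P-values therefore speak of library-to-library spread, which can be purely technical.

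DN1 is the earliest of the CD4- CD8- stages through which progenitors pass after they enter the thymus, and DN2 is the stage after it. Notch signalling from the thymic stroma drives the T-cell program there, and BCL11b, a zinc finger repressor, is switched on as cells commit to it and shut out the natural killer (NK) and innate lymphoid fates. ID2 binds E proteins, the factors that keep the T and B programs running, and takes them off DNA; NK cells and innate lymphoid cells (ILCs) depend on it. The fetal thymus makes several waves of gamma-delta T cells before the alpha-beta T cells predominate, and it holds NK cells and ILCs as well.

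The genes that the gates were drawn on were read first. Id2 (chromosome 12, 25093799 to 25097140, GRCm38) held 3.64, 4.35 and 0 normalised counts in BCL11b+ID2- libraries 1, 2 and 3 and 763, 2487 and 1035 in BCL11b-ID2+ libraries 1, 2 and 3. It was lower in BCL11b+ID2- by a log2 difference of -8.75 ± 1.80 (SE, 3 libraries a side, adjusted p = 0.019). Bcl11b (chromosome 12, 107910403 to 108003602) held 1488, 927 and 4467 against 509, 7.03 and 56.1. Its libraries did not overlap, but the log2 difference of 4.90 ± 1.36 did not pass, with an adjusted p of 0.087. Library 1 of BCL11b-ID2+ stood apart from its replicates in Bcl11b, and also in Cd3e (1018 against 173 and 4.41). Whether T-lineage cells were present in that library was not tested. Since the gates were drawn on both, neither transcript is a finding.

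Of the markers chosen to check the gates, Cd3e fitted the name T-committed, being higher in BCL11b+ID2-, while the CD3 chain Cd3g (417, 1352 and 994 against 1493, 1314 and 153 normalised counts) overlapped between the gates. So did the surface protein Thy1, at 2053, 2793 and 172 against 205, 685 and 841. The NK markers Ncr1, Klrb1c, Klrk1 and Il2rb were all higher in BCL11b-ID2+. The T-box factors of NK cells were scarce there, with Tbx21 at 21.6, 101 and 87.6. Eomes stood at 584 in library 1 but at 1.17 and 5.04 in libraries 2 and 3, and was below the filter. The gates are called by their markers below. Ptprc (CD45), carried by all leukocytes, had means of 3282 and 5015 in BCL11b+ID2- and BCL11b-ID2+ (adjusted p = 0.68).

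The 6 libraries held 13227841 to 19880924 recovered reads, of which the mitochondrial ribosomal RNAs took 50.8 to 76.0%. Without mitochondrial genes, 3393061 to 6321093 reads were left, and 9515 to 12954 genes were detected. On log2 values, libraries of the same gate correlated across genes at r = 0.578 to 0.635 and libraries of different gates at 0.506 to 0.559. These correlations are over genes, which are not independent, and are given as a description.

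The comparison called 84 genes, 0.816% of those tested, with 30 higher (0.292%) and 54 lower (0.525%) in BCL11b+ID2-. The counts of called list members below are to be read beside these shares. The genes higher in BCL11b+ID2- included the recombinase genes Rag1 and Rag2, constant segments of the T-cell receptor gamma locus, Cd3e, Notch3, Cd24a and Cdk6. The genes higher in BCL11b-ID2+ included 7 killer lectin-like receptors, Ncr1, Il2rb, both chains of the interleukin-18 receptor, Itga1, Itga2 and Itgae. The calls were large, with a median absolute log2 difference of 8.0, and 73 exceeded 5. In 9 of them the lower gate held no read and in 18 it held 1 to 3. The libraries of the gates overlapped in 0 of the 84. Differences of this size seldom leave an overlap, so this adds no support to the calls, and the share over all genes tested was not computed. The median log2 difference over all genes tested was -0.18, and 1237 genes had an unadjusted p under 0.05. In bulk libraries fewer cells of a type and less RNA per cell cannot be told apart.

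**Figure D1:**
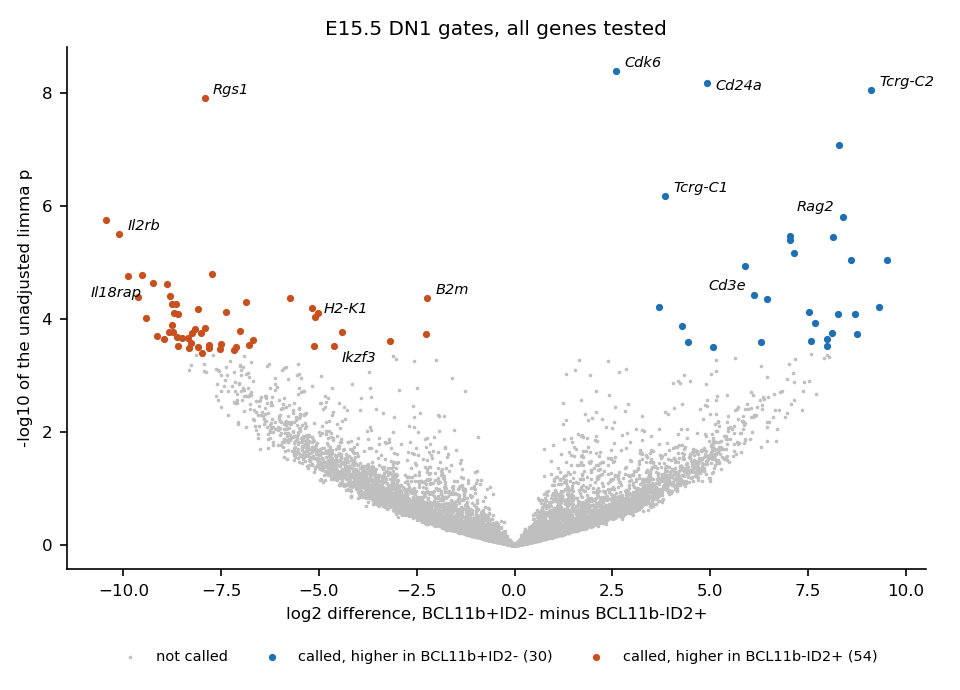
Each point is 1 of the 10289 genes tested at E15.5, with the log2 difference (BCL11b+ID2- minus BCL11b-ID2+) on the x axis and -log10 of the unadjusted limma p on the y axis. Blue points are the 30 genes called higher in BCL11b+ID2-, orange points the 54 called higher in BCL11b-ID2+, and most of the called genes lie beyond a log2 difference of 5 on either side.

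The number of calls moved with the libraries and the tool used. The median standard error of a log2 difference was 1.97 over all genes, against 0.67 in the E19.5 comparison of the same gates. Leaving out BCL11b+ID2- library 1, 2 or 3 left 30, 35 or 25 calls, and leaving out BCL11b-ID2+ library 1, 2 or 3 left 22 each time. The majority turned when a BCL11b-ID2+ library was omitted: 15 higher and 7 lower calls for library 1, 14 and 8 for library 2, and 16 and 6 for library 3. Without BCL11b+ID2- library 1 there were 18 higher and 12 lower calls. On recovered reads, edgeR called 44 genes (17 higher and 27 lower) and DESeq2 774 (280 higher and 494 lower), and limma on the 2 gates alone called 29. The genes called in all 6 of the fits that left out 1 library were 14. They included Cdk6, Tcrg-C2, Cd24a, Tcrg-C1, Rag2, Akr1c13, Rag1, Erg and Arpp21, higher in BCL11b+ID2-, and Rgs1, Il2rb and Neurl3, lower in it. The remaining 70 lost their call in at least 1 of those 6 fits, and this applies to each gene below that is not among the 14.

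The V(D)J recombination genes were the clearest group among the calls higher in BCL11b+ID2-. Rag1 (chromosome 2, 101638282 to 101649501) and Rag2 (chromosome 2, 101624718 to 101632529) encode the recombinase that joins antigen receptor segments. Rag1 held 11238, 4815 and 5663 normalised counts in BCL11b+ID2- and 6.39, 82 and 20.8 in BCL11b-ID2+, a 199-fold difference (log2 8.15 ± 1.38, adjusted p = 0.0034). Rag2 held 6554, 3219 and 5026 against 32, 11.7 and 5.67, a 299.7-fold difference (log2 8.39 ± 1.35, adjusted p = 0.0023). Both genes were high in each BCL11b+ID2- library and low in each BCL11b-ID2+ library. Arpp21, a phosphoprotein gene listed with them that is no part of the recombinase, held 2420, 4604 and 3546 against 13.6, 4.69 and 6.94. All 3 members tested in that list were called higher, with a median log2 difference of 8.39, and they were called whichever library was left out. Hivep3, a zinc finger gene, was called too (366, 228 and 777 against 0.799, 1.17 and 0).

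Genes of the gamma-delta receptor were split. Of 12 members tested, 3 were called higher in BCL11b+ID2-, 0 lower, and 9 not, with a median log2 difference of 1.28. Tcrg-C2 (chromosome 13, 19304649 to 19307551), a constant segment of the receptor gamma chain, held 8057, 5918 and 12629 normalised counts in BCL11b+ID2- and 16.8, 14.1 and 12 in BCL11b-ID2+. Its log2 difference was 9.12 ± 1.09 (adjusted p = 3.1e-05). Tcrg-C1 held 14309, 13484 and 19435 against 1108, 1668 and 692, so that it was lower in BCL11b-ID2+ but far from absent there (log2 3.84 ± 0.58, adjusted p = 0.0012). Tcrg-C3, called as well but outside the list, held 667, 1573 and 274 against 0.799, 2.34 and 1.89. The fourth constant segment, Tcrg-C4, lay the other way, at 407, 54.4 and 36.4 against 1887, 3405 and 2127, without passing (log2 -4.66 ± 1.33, adjusted p = 0.099). Tcrg-C1, Tcrg-C2 and Tcrg-C3 are closely alike in sequence, and the authors' counting could have split reads among them, so the separate values of these 3 are uncertain. Trdc, the delta chain constant segment, held 1163, 1015 and 1223 against 0, 1.17 and 94 and lay just outside the threshold (log2 7.58 ± 1.87, adjusted p = 0.050). The same list held Cd24a (chromosome 10, 43578284 to 43584265), a surface protein that immature thymocytes carry and lose as they mature. It stood at 17372, 9588 and 22096 against 463, 1005 and 281 (log2 4.92 ± 0.58, adjusted p = 3.1e-05). The gamma-delta transcription factors Sox13 and Maf had log2 differences of 1.09 and -2.67, neither of which passed.

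Of 16 genes of the CD3 complex and its signalling tested, 1 was called higher, 0 lower and 15 not, beside a share of 0.816% over all genes tested. The median log2 difference was 0.72, and of the 15 not called 10 were positive and 5 negative. The called one was Cd3e (chromosome 9, 44998740 to 45009627), at 9916, 3919 and 8270 normalised counts against 1018, 173 and 4.41 (log2 6.12 ± 1.22, adjusted p = 0.017). Its BCL11b-ID2+ libraries spanned from 4.41 to 1018, all below the other gate. Cd3d and Ptcra, the surrogate alpha chain of the pre-T-cell receptor, had log2 differences of 6.09 and 6.46 and did not pass (adjusted p = 0.17 and 0.076). Cd3g and Cd247, the latter being the zeta chain that NK cells also use, had differences of 0.30 and 0.14. Of 5 alpha-beta receptor and later thymocyte genes tested none was called, at a median of 1.42. Trbc2, a beta chain constant segment, held 648, 1951 and 4231 against 673, 154 and 477, values that overlapped. A variable segment of the beta chain outside the list, Trbv13-2, was called, at 534, 380 and 334 against 0.799, 2.34 and 0.631 (log2 7.58 ± 1.77, adjusted p = 0.038).

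Among the T-lineage regulators, Myb, which early thymocytes need, was the 1 of 14 tested that was called, at 5382, 8197 and 7165 normalised counts against 783, 263 and 153 (log2 4.43 ± 1.04, adjusted p = 0.039). The list's median was 1.94. Tcf7, encoding TCF-1, a target of Notch that opens the T program, held 3894, 3614 and 7162 against 1531, 1197 and 1318. Each BCL11b+ID2- library was above each BCL11b-ID2+ library, but the log2 difference of 1.79 ± 0.58 did not pass (adjusted p = 0.16). Gata3, needed by T cells and ILCs alike, had a difference of 0.59 (adjusted p = 0.87). Themis, a receptor signalling protein of thymocytes, held 3343, 2492 and 3128 against 63.9, 107 and 330 and missed the threshold (log2 4.49 ± 1.23, adjusted p = 0.084). Ikzf1, the Ikaros gene, overlapped between the gates.

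**Figure D2:**
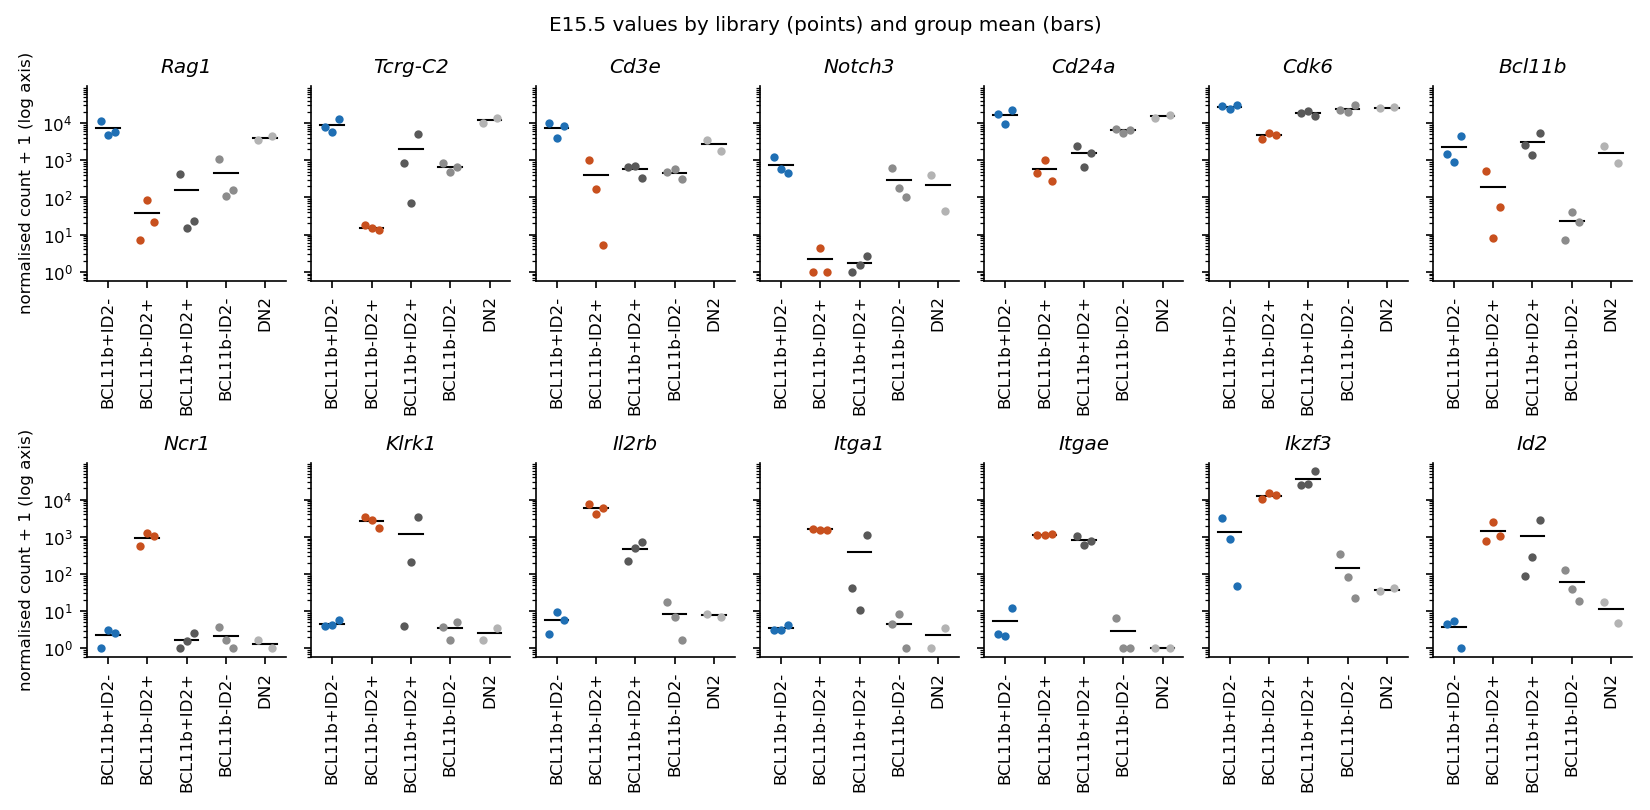
Normalised count plus 1 (log axis) of 14 genes in each E15.5 library (points) with the group mean (bars), for the 5 sorted populations. Rag1, Tcrg-C2, Cd3e, Notch3, Cd24a and Cdk6 sit higher in the 3 BCL11b+ID2- libraries than in the 3 BCL11b-ID2+ libraries, and Ncr1, Klrk1, Il2rb, Itga1, Itgae, Ikzf3 and Id2 the other way round; Bcl11b did not pass the test.

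The Notch pathway gave 1 call in each direction among 8 members tested, with a median log2 difference of 0.59. Notch3 (chromosome 17, 32120820 to 32166852), a receptor gene that Notch signalling itself induces in thymocytes, held 1223, 587 and 459 normalised counts in BCL11b+ID2- and 0, 3.52 and 0 in BCL11b-ID2+. With 3 reads in the lower gate, the ratio of 645 had a counting interval of 221 to 3129 (95%, counting error alone), and the adjusted p was 0.020. Jag1 (chromosome 2, 137081456 to 137116644), which encodes a ligand of the same receptors, was lower in BCL11b+ID2-, at 0.729, 1.09 and 3.16 against 675, 470 and 662 (log2 -7.92 ± 1.77, adjusted p = 0.032). So the gate with the Notch3 transcript had almost no Jag1 transcript, and the reverse. This did not hold for the receptor genes together. Notch2 lay the other way from Notch3, at 266, 974 and 779 against 2676, 3433 and 2266, without passing (log2 -2.23 ± 1.05, limma adjusted p = 0.40). Rbpj was also negative (305, 175 and 388 against 729, 1693 and 786, limma adjusted p = 0.67). Of the 6 members not called, 3 were positive and 3 negative. Notch1, the receptor that T-cell fate depends on, held 6999, 1209 and 1502 against 21.6, 312 and 272 (log2 4.23 ± 1.17, adjusted p = 0.087). The Notch targets Hes1 and Dtx1 did not pass either, with differences of 3.03 and 6.32 (adjusted p = 0.56 and 0.15).

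Among 13 progenitor regulators tested, Erg, an ETS factor of stem and progenitor cells, was the 1 gene called, and the median was 0.95. It held 2301, 8659 and 7622 normalised counts against 297, 11.7 and 16.4, with library 1 of BCL11b-ID2+ above its replicates (log2 7.05 ± 1.19, adjusted p = 0.0034). Bcl11a, the relative of Bcl11b found in early progenitors, was similarly low on both sides (206, 132 and 60.1 against 132, 35.2 and 276). Lin28b, an RNA-binding regulator of fetal haematopoiesis, held 1520, 3143 and 8595 against 1910, 2222 and 1331, and the gates overlapped.

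Cdk6 (chromosome 5, 3341485 to 3531008), a cyclin-dependent kinase of the G1 phase, had the smallest difference of the higher calls, at 28538, 24441 and 29768 against 3644, 5562 and 4740 (log2 2.59 ± 0.30, adjusted p = 3.1e-05). Ccnd2, encoding a cyclin that is a partner of this kinase, lay in the other direction, at 1717, 589 and 453 against 6346, 10991 and 4902 (log2 -3.18 ± 0.74, adjusted p = 0.038). The other 20 of 22 cell cycle genes tested were not called, and the list's median was -0.13. Top2a and Mki67, markers of dividing cells, were high in all 6 libraries. Top2a ranged from 9775 to 13666 against 9038 to 14735, and Mki67 from 8769 to 16148 against 21574 to 24908, the latter with a log2 difference of -0.94 ± 0.35 (adjusted p = 0.25).

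Several of the genes with the largest positive differences are better known from other tissues. Plekha7, which encodes a protein of epithelial adherens junctions, held 1224, 259 and 2802 normalised counts against 0, 0 and 1.26. Syt14, of the synaptotagmin family, held 825, 794 and 1438 against 1.6, 3.52 and 0. Ptprf (chromosome 4, 118208213 to 118291405), a receptor-type tyrosine phosphatase, held 709, 352 and 1017 against no read in BCL11b-ID2+, so it was at least 591-fold higher, with the floor set at 3 reads over the gate. Edaradd and Izumo1r had no read in BCL11b-ID2+ either and were at least 243-fold and 67.5-fold higher. Izumo1r, a member of the folate receptor family, stood at 93.2, 58.7 and 85.4 in BCL11b+ID2- and at 0 in all 11 other E15.5 libraries. It passed the filter only through the gate where it was high, so the zeros elsewhere are a description alone. Its call was also lost with edgeR, with DESeq2 (adjusted p = 0.24) and with the replicate block. Dpp4 (2304, 4321 and 1764 against 8.79, 134 and 61.2), the DNA methyltransferase gene Dnmt3b (2647, 2679 and 924 against 7.19, 9.38 and 113) and the aldo-keto reductase gene Akr1c13 (4053, 2773 and 3439 against 7.99, 22.3 and 78.2) were also called.

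Pdgfrb, a growth factor receptor known from mesenchyme, was the 1 called gene from the lists of other cell types. It held 306, 337 and 961 normalised counts in BCL11b+ID2- and 0, 2.34 and 0 in BCL11b-ID2+ (log2 8.28 ± 1.76, adjusted p = 0.020). Over all 12 members of the thymic epithelial and stromal list with a row in the table, the summed level was 773 to 1421 in BCL11b+ID2- libraries and 778 to 1016 in BCL11b-ID2+ libraries. The collagen gene Col3a1 was at 0 in all 3 BCL11b+ID2- libraries, and Col1a1 was at 0, 2.17 and 0. The epithelial master regulator Foxn1 was at 58.7 in BCL11b+ID2- library 2 and at 0 in the other 5 libraries. The summed myeloid markers came to 0.729 to 192 against 130.3 to 411, with none of 6 tested called. The summed dendritic markers came to 198 to 958 against 65.6 to 446, and none of 4 was called. The summed B-lineage markers came to 101 to 290.3 against 414 to 3659, most of it the immunoglobulin gene Ighm (106, 176 and 52.2 against 3659, 294 and 1269), and none of 2 was called. Mast, erythroid and megakaryocyte markers summed to 345 to 1756 against 1166 to 3803, most of it the mast cell protease Cpa3, and none of 2 was called. The part of these transcripts in the differences between the gates was not tested.

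The killer lectin-like receptors, which NK cells use to sense ligands on target cells, made the largest block on the BCL11b-ID2+ side. Of 10 tested, 7 were called lower in BCL11b+ID2-, beside 0.525% over all genes tested, and 0 higher, and the median log2 difference was -8.80. All of these calls but Klrb1b passed the filter only through the BCL11b-ID2+ libraries. Their direction, and part of the share and the median, were therefore set by the filter. Klri2 held 1.46, 3.26 and 6.33 normalised counts in BCL11b+ID2- and 3281, 4415 and 2556 in BCL11b-ID2+ (log2 -9.62 ± 1.94, adjusted p = 0.017). Klrk1 (chromosome 6, 129610323 to 129623864), the activating receptor NKG2D, held 2.91, 3.26 and 4.75 against 3472, 2838 and 1757 (log2 -9.14, adjusted p = 0.035). Both subunits of the inhibitory CD94-NKG2A receptor were called. Klrc1, its NKG2A chain, held 0.729, 3.26 and 3.16 against 2241, 3996 and 1127, and Klrd1, its CD94 chain, held 0, 2.17 and 0 against 483, 904 and 880. Klrb1c, which encodes the NK1.1 antigen, was uneven within the BCL11b-ID2+ gate, at 71.1, 1946 and 958. Klrb1f was not called. It stood at 0 and 4.35 in BCL11b+ID2- libraries 1 and 2 but at 1608 in library 3, against 2122, 1823 and 1802. The members are close relatives, and reads may have been shared between copies. Leaving out 1 library cut the number of called receptors to between 0 and 3, with 0, 1 and 3 called without BCL11b+ID2- library 1, 2 and 3 and 1, 0 and 0 without BCL11b-ID2+ library 1, 2 and 3. A further 5 listed receptors were below the filter and 5 had no row.

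Other receptors of NK cells followed in part. Of 11 tested, 4 were called lower in BCL11b+ID2-, beside 0.525% over all genes tested, 0 higher and 7 not, with a median of -7.14. Of these calls, Ncr1 and Cd200r4 passed the filter only through the BCL11b-ID2+ libraries, so their direction was set by it. Ncr1 (chromosome 7, 4337724 to 4345164), encoding NKp46, held 0, 2.17 and 1.58 normalised counts against 562, 1233 and 1053. The ratio of 758 rests on 3 reads in the lower gate and had a counting interval of 259 to 3676, with a limma adjusted p of 0.017. Slamf7 (2.91, 2.17 and 6.33 against 4600, 937 and 1542), Cd226 (0, 0 and 4.75 against 563, 1170 and 699) and Cd200r4 (0, 1.09 and 1.58 against 964, 404 and 1442) were called with it. Cd27 and Cd96, which T and NK cells share, were not, and each varied over 10-fold within a gate. Of 10 signalling adaptors 2 were called lower, beside the same 0.525% over all genes tested, at a list median of -2.97. Sh2d1b1, which relays signals from SLAM receptors, had no read in BCL11b+ID2- and 163, 475 and 347 in BCL11b-ID2+, at least 208-fold more. Clnk, an adaptor of immune receptors, held 0.729, 6.52 and 3.16 against 488, 643 and 1072. Fcer1g, which couples NKp46 to its kinases, did not pass (151, 71.7 and 22.2 against 495, 2077 and 2240, adjusted p = 0.31).

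Receptors for the cytokines of NK cells were among the largest differences. Il2rb (chromosome 15, 78479256 to 78495271), the beta chain of the interleukin-2 and interleukin-15 receptors, held 1.46, 8.7 and 4.75 normalised counts in BCL11b+ID2- and 7469, 4163 and 5868 in BCL11b-ID2+ (log2 -10.10 ± 1.70, adjusted p = 0.0034). The gamma chain that completes these receptors, Il2rg, was present in all 6 libraries, at 2271, 1444 and 2263 against 1373, 1382 and 1715 (log2 0.40 ± 0.85, adjusted p = 0.91). The interleukin-7 receptor gene Il7r was likewise present in all, at 1168, 1283 and 1385 against 1702, 621 and 1062 (log2 0.29 ± 0.80, adjusted p = 0.93). Il18r1 and Il18rap, the 2 chains of the interleukin-18 receptor, were both called. Il18r1 held 8.74, 369.6 and 39.6 against 7117, 9734 and 3264 (log2 -6.85 ± 1.41, adjusted p = 0.019). Il18rap (chromosome 1, 40515362 to 40551705) held 0.729, 1.09 and 4.75 against 4585, 2089 and 1833 (log2 -9.89 ± 1.87, adjusted p = 0.0093). The BCL11b+ID2+ gate carried these transcripts too, with Il18r1 at 4915, 6036 and 7306 and Il18rap at 3278, 560 and 695. Il2rb was lower there than in BCL11b-ID2+, at 225, 498 and 720. Over the 17 cytokine receptors tested, these 3 were the calls, beside 0.525% called lower over all genes tested, and the list's median was -0.35.

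The promoters of Il18rap and Ptprf are shown because, of the calls with an entry in the RefSeq promoter table (GRCm38.p6) and a place in the naming rule, they had the largest difference in each direction. The 250 bases before each start are given 5′ to 3′ on the gene's strand. They lie at chr1:40515112-40515361 (plus strand) and chr4:118291398-118291647 (minus strand). Capitals mark the 1 motif match found.
Il18rap: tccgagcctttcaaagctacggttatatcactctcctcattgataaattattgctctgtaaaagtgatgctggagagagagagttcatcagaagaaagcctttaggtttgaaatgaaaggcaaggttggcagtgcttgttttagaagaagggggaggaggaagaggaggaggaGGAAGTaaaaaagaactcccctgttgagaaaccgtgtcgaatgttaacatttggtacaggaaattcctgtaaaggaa
Ptprf: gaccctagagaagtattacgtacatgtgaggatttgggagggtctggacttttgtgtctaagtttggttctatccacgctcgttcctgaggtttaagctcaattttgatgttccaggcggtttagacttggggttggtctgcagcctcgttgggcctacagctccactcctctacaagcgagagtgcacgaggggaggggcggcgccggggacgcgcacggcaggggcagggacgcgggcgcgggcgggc
The motifs searched on both strands were AGGTGT (T-box core), TGTGGT (Runx), CAGGTG and CAGCTG (E box) and ACTTCC (Ets). The match in Il18rap is ACTTCC on the reverse strand, 77 bases before the start, and 19.7% of all 32851 promoters of this length hold that motif. The promoter of Ptprf, and those of Syt14 (chr1:193035776-193036025) and Neurl3 (chr1:36273426-36273675), held no match. A match or its absence describes these letters alone. Entries existed for 58 of the 84 calls (69.0%) and for 69.4% of all genes tested, and no count over the calls was made.

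Cd44, an adhesion receptor that marks progenitors and activated lymphocytes, held 7.29, 116 and 381 against 2333, 2357 and 3195 (log2 -5.18 ± 1.08, adjusted p = 0.020). It stood at 2571, 3751 and 13066 in BCL11b+ID2+, at 1259, 756 and 2589 in BCL11b-ID2- and at 159 and 343 in DN2. Cxcr6, Cx3cr1 and Ccr2 were also lower in BCL11b+ID2- without passing (adjusted p = 0.063, 0.070 and 0.070). The integrins, alpha and beta chains together, gave 3 calls of 12, beside 0.525% called lower over all genes tested. All were of alpha chains and all lower in BCL11b+ID2-, and the list's median was -3.0. Itga1 (chromosome 13, 114953096 to 115101964), the CD49a chain carried by tissue-resident NK cells and ILC1, held 2.19, 2.17 and 3.16 against 1657, 1547 and 1561. Itga2, the CD49b chain of circulating NK cells, held 1.46, 3.26 and 0 against 2607, 593 and 508. Itgae (chromosome 11, 73090583 to 73147446), the CD103 chain that binds epithelial cadherin, held 1.46, 1.09 and 11.1 against 1128, 1108 and 1180. Each of the 3 lost its call when any 1 of the 6 libraries was left out. Itga4, a homing integrin of progenitors, was abundant on both sides and was not called (10003, 15623 and 14819 against 8185, 3744 and 5844).

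Among 11 cytotoxic genes tested there were 2 calls, beside a share of 0.816% over all genes tested. Ctsw, a protease of cytotoxic granules, and Serpinb9, which protects the cell from its own granzyme B, were called lower in BCL11b+ID2-, and 0 were called higher. The other 9 were not called, all with a negative difference, and the list's median was -1.84. Ctsw held 0.729, 0 and 0 normalised counts against 424, 49.2 and 176. Gzma, encoding granzyme A, was high on both sides, at 3543, 4566 and 1891 against 4025, 4128 and 2567 (log2 -0.16 ± 1.04, adjusted p = 0.98). The death ligand gene Tnfsf10 overlapped as well, at 4425, 1652 and 165 against 3018, 4787 and 3879. Of 6 secreted factors tested, Ccl5 and Xcl1 were called lower, beside 0.525% over all genes tested, with a median of -6.40. Both passed the filter only through the BCL11b-ID2+ libraries, so their direction was set by it. Xcl1, the chemokine lymphotactin, held 0, 0 and 1.58 against 1644, 236 and 131, and Ccl5 had no read against 196, 354 and 286. Ifng, the interferon of NK and T helper cells, held 1.46, 0 and 0 against 618, 17.6 and 368 and lay just outside the threshold (adjusted p = 0.052).

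None of the 12 NK and ILC1 regulators tested was called, although 10 had a negative difference and the median was -2.99. Without BCL11b+ID2- library 2, 1 of them was called lower. Tox2 had the largest difference of the list, at 0.729, 1.09 and 4.75 normalised counts against 1687, 73.8 and 703 (log2 -7.34 ± 1.97, adjusted p = 0.073). Rora, a nuclear receptor of ILCs, held 19.7, 386 and 12.7 against 4088, 1088 and 2109 (adjusted p = 0.077), and Tbx21 had an adjusted p of 0.11. Runx3 and Ikzf2 overlapped between the gates, with differences of -0.85 and 0.03. Among 7 genes of innate lymphoid precursors and ILC2 none was called either, at a median of -1.97. Arg1, an enzyme found in ILC precursors, held 5.83, 5.44 and 77.5 against 321, 2248 and 429 (adjusted p = 0.16). The E protein genes Tcf12, Tcf4 and Tcf3, whose products ID2 binds, had differences of 0.53, 2.08 and 2.08, none of which passed. GIMAP GTPases gave 0 calls of 6 (median -4.14) and immediate early and stress genes 0 of 9 (median -2.75). Mitochondrially encoded genes gave 0 calls of 10, all 10 with a positive difference (median 0.81). Without BCL11b+ID2- library 1, in which mitochondrial ribosomal RNAs took 50.8% of reads against 75.2 and 76.0% in the other libraries of that gate, 5 of the 10 were called higher in BCL11b+ID2-.

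Other calls higher in BCL11b-ID2+ were of genes outside the lists, and those given here other than Neurl3 were chosen after their values were seen. H2-K1 (chromosome 17, 33996017 to 34000347), a classical class I heavy chain, held 64.1, 310 and 112 normalised counts against 4899, 4384 and 4198 (log2 -5.09 ± 1.1, adjusted p = 0.023). B2m, the light chain of all class I molecules, held 1654, 6755 and 4070 against 16266, 21091 and 13877 (log2 -2.24 ± 0.45, adjusted p = 0.017). The class I relative H2-Q6 was called at lower levels, and class I genes share sequence. Rgs1 (chromosome 1, 144242296 to 144249242), which dampens chemokine receptor signals, held 18.2, 46.7 and 25.3 against 5547, 13401 and 4634 (log2 -7.92 ± 0.96, adjusted p = 3.2e-05). Neurl3, encoding a ubiquitin ligase of the neuralized family, had no read against 578, 846 and 830, at least 475-fold more. Ikzf3, the Aiolos gene of the Ikaros family, held 3154, 873 and 47.5 against 10140, 15218 and 13038 (log2 -4.63 ± 1.1, adjusted p = 0.041). Its BCL11b+ID2- libraries spanned from 47.5 to 3154, all below the other gate. The scaffold gene Ahnak (32.8, 43.5 and 590 against 5398, 4513 and 5611), Fgl2 (13.1, 4.35 and 80.7 against 5369, 4215 and 2629) and Rbl2, a pocket protein of the retinoblastoma family (176, 10.9 and 225 against 2681, 2160 and 2887), were called in the same direction.

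**Figure D3:**
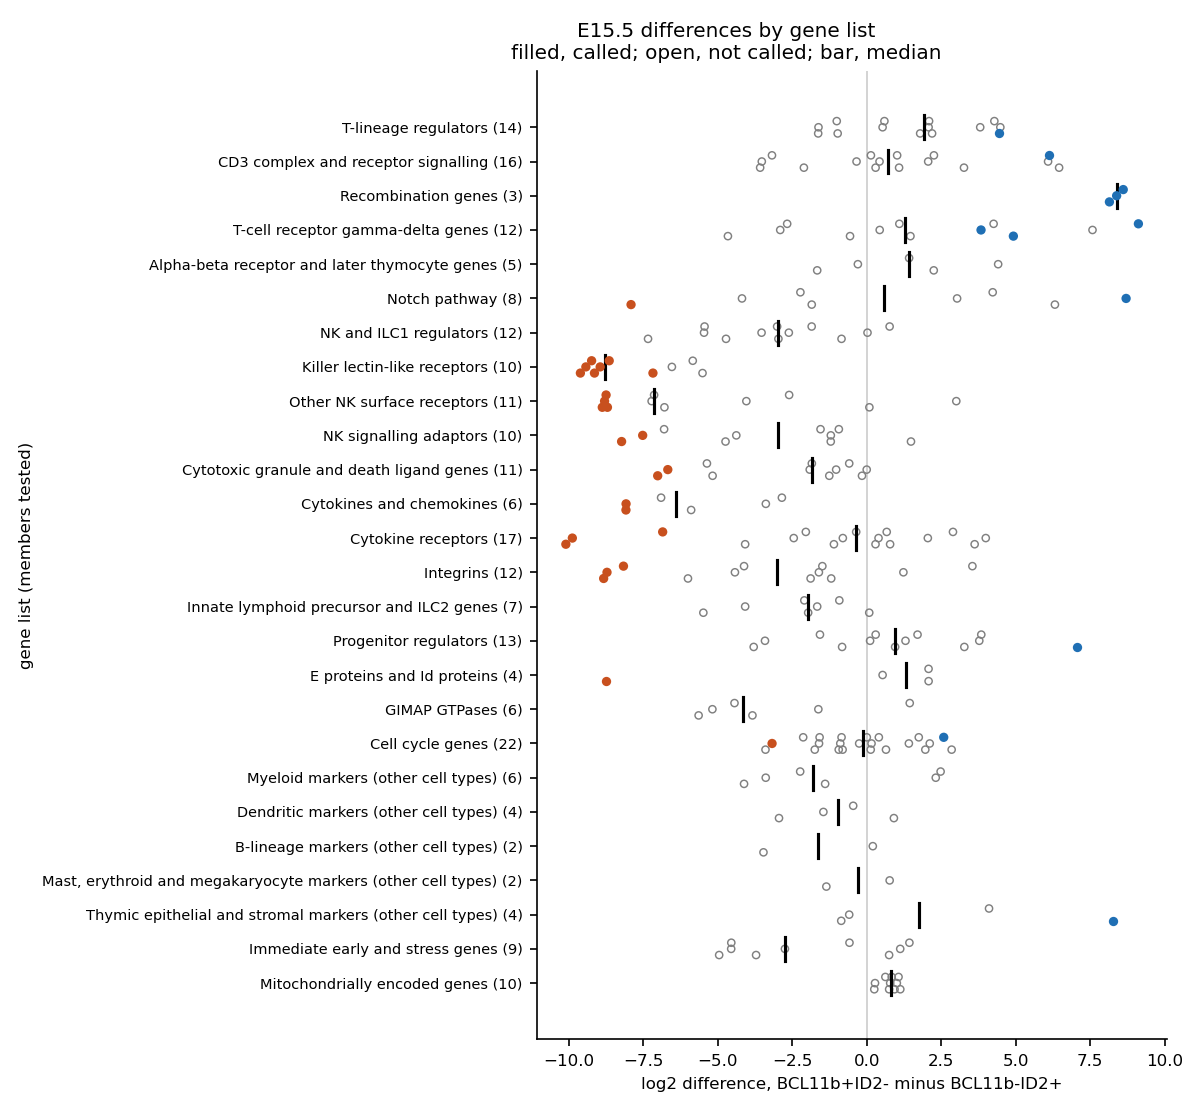
Log2 difference (BCL11b+ID2- minus BCL11b-ID2+, x axis) of each tested member of 26 gene lists (y axis, number tested in parentheses) at E15.5. Filled points were called, open points were not, and bars are list medians; the killer lectin-like receptors sit farthest to the left (median -8.80) and the recombination genes farthest to the right (median 8.39).

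Within 1000000 bases of another call lay 20 of the 84, in 7 groups. The share of such neighbours among all genes tested was not computed, and the 2 largest groups are families of related genes whose members can share reads. The largest was on chromosome 6 between 128778485 and 129740484, where 7 of 17 genes tested were called, all killer lectin-like receptors. On chromosome 13 between 19214103 and 19307551, 3 of 4 tested genes were called, the constant segments Tcrg-C1, Tcrg-C3 and Tcrg-C2. The pairs Il18r1 and Il18rap, Itga2 and Itga1, Cd200r4 and Cd200r2, and Rag2 and Rag1 each went in 1 direction. The remaining group, on chromosome 1, held 1 call higher and 1 lower in BCL11b+ID2-.

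The remaining E15.5 populations, which took no part in choosing these genes other than through the filter and the shared spread, placed the calls differently. Of the 30 genes higher in BCL11b+ID2-, DN2 lay nearer to that gate than to BCL11b-ID2+ on the log2 scale in 26, BCL11b-ID2- in 18 and BCL11b+ID2+ in 7. Of the 54 genes lower in it, BCL11b+ID2+ lay nearer to BCL11b-ID2+ in 31, BCL11b-ID2- in 6 and DN2 in 4. These are counts of genes with no test, and the shares over all genes tested were not computed. Some of the 54, such as Ncr1, Xcl1, Klrb1c and Ctsw, passed the filter only through the BCL11b-ID2+ libraries. Izumo1r, among the 30, passed it only through BCL11b+ID2-. For such genes the other populations had to lie near the lower gate, so part of these counts was set by the filter. Rag1 stood at 3536 and 4371 normalised counts in DN2, at 1060, 108 and 162 in BCL11b-ID2- and at 434, 14 and 22.9 in BCL11b+ID2+. Erg stood at 7889, 3564 and 9667 in BCL11b-ID2-, as high as in BCL11b+ID2-, and at 8, 28 and 18 in BCL11b+ID2+. Of the genes higher in BCL11b-ID2+ that are named next, some were shared by BCL11b+ID2+ and others were not. Jag1 (1500, 939.7 and 1404) and Ikzf3 (24131, 26845 and 57545) stood above each BCL11b-ID2+ library there and Itgae (1048, 592 and 785) somewhat below, whereas Ncr1 (0, 0.56 and 1.64), Xcl1 (1, 0 and 0) and Neurl3 (3, 0 and 1.64) were at or near 0. Klrk1 was spread over a wide range in that gate, at 3, 210 and 3314. Ncr1, Xcl1 and Neurl3 passed the filter only through the BCL11b-ID2+ libraries, so their low values in BCL11b+ID2+ are a description alone.

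**Figure D4:**
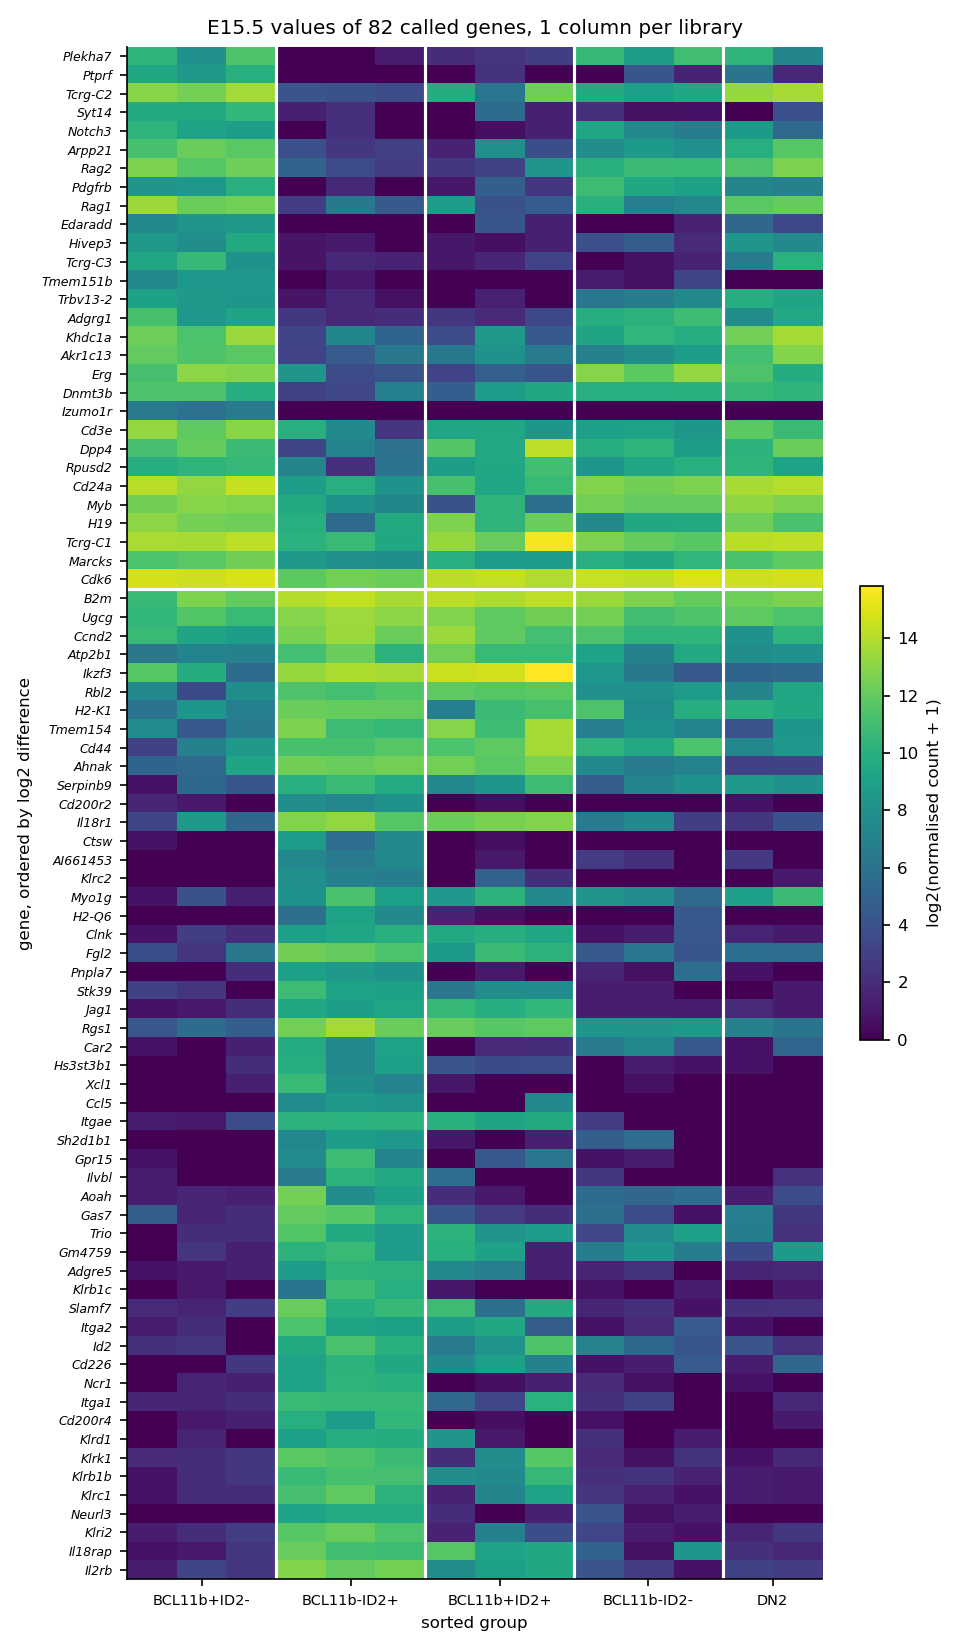
Log2(normalised count + 1) of 82 of the called genes (y axis, ordered by log2 difference) in each of the 14 E15.5 libraries (x axis, 1 column per library, grouped by population). The 29 genes above the white line are high in BCL11b+ID2- and mostly in DN2, and the 53 below it are high in BCL11b-ID2+, with part of them also high in BCL11b+ID2+.

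At E19.5 the same gates came from libraries that the E15.5 comparison did not use. The stages were normalised in separate tables, so no test was made across them. There 1785 of 13840 genes were called (12.9%), 795 higher (5.74%) and 990 lower (7.15%) in BCL11b+ID2-. All 84 E15.5 calls were tested at E19.5, and 63 were called in the same direction, 18 of the 30 higher ones (60%) and 45 of the 54 lower ones (83.3%). Among the 9935 genes tested at both stages, 5.97% were called higher and 7.35% lower at E19.5. The 63 made up 4.76% of the E19.5 calls among those genes. Of the other 21, 19 were not called, 11 of them with the same sign and 8 with the opposite one, and 2 were called in the opposite direction, H19 and Ilvbl.

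Most of the genes called higher in BCL11b-ID2+ at E15.5 were called again. All 10 killer lectin-like receptors tested at E19.5 were called lower in BCL11b+ID2-, with a median log2 difference of -8.04. Ncr1 had a log2 difference of -8.85 ± 0.80 (adjusted p = 3.8e-08), Itga1 of -9.40 ± 0.82 (adjusted p = 2.1e-08) and Neurl3 of -9.30 ± 0.84 (adjusted p = 4e-08). Of the 11 cytotoxic genes, 8 were called lower at this stage and 0 higher. Other genes called higher in BCL11b-ID2+ at E15.5 came closer. Itgae stood at 1043, 1047 and 1256 against 3143, 4206 and 3420 (log2 -1.68 ± 0.43, adjusted p = 0.0094). Ikzf3, at 3066, 1539 and 1225 against 1323, 1414 and 1205, and Jag1, at 104, 137 and 145 against 228, 277 and 278, were not called (adjusted p = 0.48 and 0.22). The 12 NK and ILC1 regulators, none called at E15.5, gave 3 higher and 3 lower calls at E19.5, with a median of -0.24. Tox2, negative at E15.5 without passing, was called higher in BCL11b+ID2- at E19.5 (log2 4.89 ± 0.84, limma adjusted p = 0.00021).

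Of the genes called higher in BCL11b+ID2- at E15.5, several receptor genes were called again, while Rag1 and Rag2 were not. Tcrg-C2 (log2 6.11 ± 0.34), Cd3e (4.56 ± 0.29), Myb (5.02 ± 0.31) and Notch3 (5.01 ± 0.78) were each called higher in BCL11b+ID2- at E19.5. Rag1 stood at 198, 196 and 251 normalised counts in BCL11b+ID2- and at 265, 147 and 89.8 in BCL11b-ID2+, and the gates overlapped (log2 0.49 ± 0.39, adjusted p = 0.51). Rag2 stood at 46.9, 17.1 and 22.1 against 16.2, 0 and 13.6 (log2 2.11 ± 0.75, adjusted p = 0.069). Erg was at 0 in all 3 BCL11b+ID2- libraries and at 0, 3.84 and 8.86 in BCL11b-ID2+. Plekha7, Syt14, Edaradd, Adgrg1, Khdc1a and Akr1c13, all among the higher calls at E15.5, were not called at E19.5, with log2 differences between -0.63 and 0.54. Of the 12 gamma-delta genes 9 were called higher at E19.5, and of the 14 T-lineage regulators 9.

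**Figure D5:**
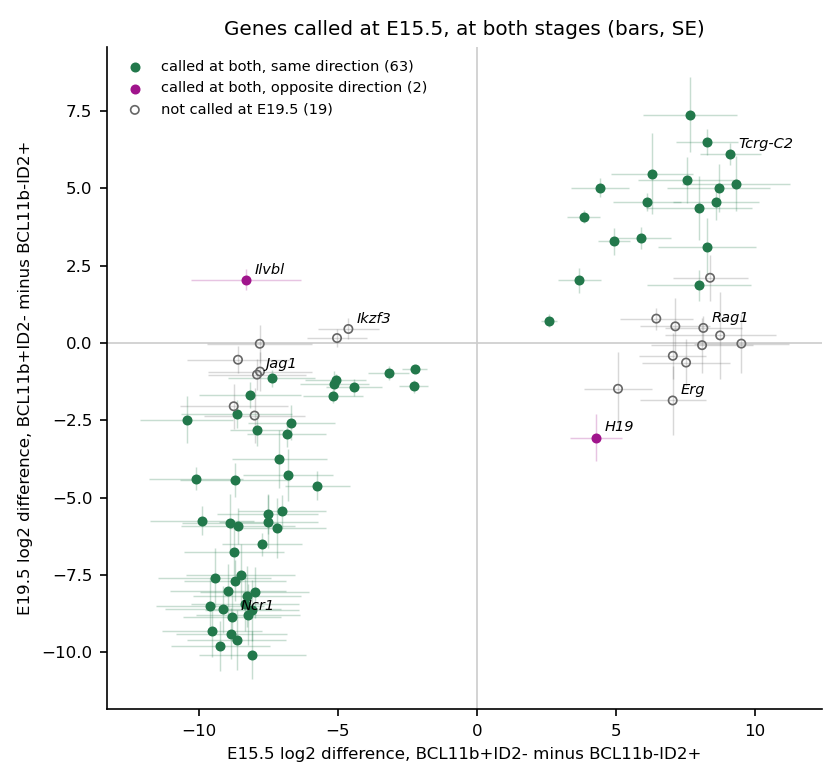
Log2 difference (BCL11b+ID2- minus BCL11b-ID2+) of the 84 genes called at E15.5, with E15.5 on the x axis, E19.5 on the y axis and bars of 1 SE. Green points (63) were called at both stages in the same direction, purple points (H19 and Ilvbl) in opposite directions, and open points (19) were not called at E19.5. Rag1 (0.49) and Ikzf3 (0.45) lie near 0 on the y axis.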

How the data were processed

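The deposited values are DESeq-normalised read counts, a normalised signal, made by the authors in 1 table per stage. The submitters' processing notes name Trim Galore 0.50, STAR 2.6.0a, DESeq2 1.18.1 and the build GRCm38. The counter, its annotation and its use of strand are not given in the sources used here, so reads of overlapping or antisense genes cannot be told apart. Per the labels' protocols, libraries were made with the Ovation RNA-seq System V2 and Ovation Ultralow kits. The E15.5 columns were matched to samples through the barcode number in the descriptions. Dividing each column by the value of 1 read gave whole reads (tolerance 0.01), used for depth and for edgeR 4.0.16 and DESeq2 1.42.0.

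Differences were tested with limma 3.58.1 (trend, robust) on log2(value + 1), a scale that understates those of low genes, with all 14 E15.5 (or 18 E19.5) libraries in 1 fit. Genes needed a value of 10 in 3 libraries, and a call is a Benjamini-Hochberg adjusted p under 0.05. The script was checked on simulated data. Folds are ratios of means; a gate without reads was set to a floor of 3 reads over the gate, and with 1 to 3 reads a 95% counting interval is given. Both cover counting error alone. The members and the 28 gene lists were chosen with earlier results of these data known. Of 378 list symbols, 245 were tested, 77 were below the filter and 56 had no row. Genes were named if called, without overlap and averaging 100 or more in the higher gate (15 a direction), if called in a list, or if among the 6 highest of a list; other called genes were named after their values were seen. Alternatives were another pseudocount, no filter, TMM scaling, edgeR, DESeq2, only the compared gates, a replicate block, library weights and leaving out each library. Coordinates are those of GENCODE vM21. Some genes that met the rule are left out of the text and of the plots of named genes and lists.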

Additional observations from a re-analysis of the deposited data

Results flagged for a closer look

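H19 and Ilvbl were called at both stages in opposite directions, with no overlap between the gates at either stage. H19, an imprinted fetal long non-coding RNA, held 8462, 5726 and 5114 normalised counts in BCL11b+ID2- and 955, 43.4 and 784 in BCL11b-ID2+ at E15.5 (log2 difference 4.29 ± 0.95 SE, limma adjusted p = 0.030). At E19.5 it held 6.94, 26.8 and 80.2 against 313, 146 and 225 (log2 difference -3.06 ± 0.75, limma adjusted p = 0.0070). Ilvbl, of the acetolactate synthase family, held 1.46, 0 and 0 against 90.3, 1146 and 747 at E15.5 (-8.31 ± 1.99, limma adjusted p = 0.041) and 340, 385 and 386 against 73.6, 127 and 75 at E19.5 (2.04 ± 0.34, limma adjusted p = 0.00013). The difference between the stages was not tested, since each stage was normalised in its own table. H19 lost its E15.5 call in 4 of the 6 fits that left out a library and Ilvbl in all 6.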

How the results depend on the processing

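Beside the 84 calls at E15.5 (30 higher and 54 lower in BCL11b+ID2-, 63 called in the same direction at E19.5), fitting without the filter gave 37 (19, 18 and 28), edgeR on recovered reads 44 (17, 27 and 29), DESeq2 774 (280, 494 and 244) and the compared gates alone 29 (13, 16 and 23). The cause of these differences was not tested. Leaving out 1 library gave 22 to 35 calls, 12 to 18 higher and 6 to 20 lower, with 14 to 27 of them called in the same direction at E19.5. Leaving out 1 E19.5 library, with the 84 kept, gave 57 to 62 called in the same direction. A pseudocount of 8 (111 calls), TMM scaling (85), library weights (108) and the replicate block (76) stayed within 1.5 times. With the replicate block 14 of the 84 lost their call. At E15.5 samples of the same number did not deviate together (r = 0.019, -0.0087 and -0.046), so the numbers were not taken as pairs. At E19.5 r was 0.076, 0.011 and 0.085 for the same number and -0.095 to 0.0053 for different numbers. The replicate block gave 1991 calls at that stage. TMM scaling put the median of all genes at -0.20. The 1785 calls at E19.5 stayed within 1.5 times under every alternative run, from 1288 to 2053. Genes near the filter rested on few reads in the lower gate.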
